A study of Homo sapiens with 8 samples.

Results

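Kinesins are motor proteins that turn the energy of ATP into steps along microtubules, and the genes of this superfamily were taken as every gene symbol made of KIF or KIFC followed by a number and, for some, a letter. The pattern selected 42 kinesin genes of 65962 genes in the table, and where a symbol had several Gene ids the id with the highest mean was kept. For 4 symbols there were several ids, and the other ids added 0 FPKM. By their known main work the 42 genes were placed in a mitotic group of 14, a transport group of 17, a cilium group of 6 and a group of 5 others. In dividing cells the mitotic kinesins build the spindle, move chromosomes and form the midzone at which the cell divides, and most of them are made in the last part of the cell cycle. Transport kinesins carry vesicles, mitochondria and other cargo along microtubules at all times, and several of them are best known from axons. Cilium kinesins work in the primary or the motile cilium or at its base.

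The RNA was from A-673 cells, an established human Ewing sarcoma line that carries the EWS/FLI1 fusion. Cells received 2 μM JIB-04, an inhibitor of the Jumonji histone demethylases, or vehicle (DMSO) for 36 hours, with 4 libraries in each group. Expression was measured by RNA-seq of messenger RNA as FPKM, a fragment count per length of transcript and per size of library, which the authors calculated for each gene. The methods describe the treatment of the cells as made in 4 replicates per group. Neither the labels nor the methods say that these 4 samples were separate cultures. The p-values therefore measure the spread between these samples, which may be technical.

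The FPKM of all genes summed to 1175407 to 1237186 in the JIB-04 libraries and to 1346289 to 1370436 in the vehicle libraries. The steps between low FPKM values placed the depth of the JIB-04 libraries at 0.766 to 0.959 of that of vehicle replicate 1, and that of the vehicle libraries at 0.822 to 1. The 8 markers of Ewing sarcoma cells were all expressed, with sums of 2030 to 2471 FPKM with JIB-04 and 3224 to 3477 FPKM with vehicle. By the test described below, 5 of them fell (38.0% of all genes did), among them CCND1 and CD99, the highest of the list. FLI1 and LIPI rose (34.2% of all genes did), and NR0B1 did not pass. FLI1 averaged 71.3 ± 2.17 FPKM with JIB-04 and 60.4 ± 2.10 FPKM with vehicle. Of the 10 markers of epithelial, blood, endothelial and liver cells, 3 reached a mean of 1 FPKM (KRT8, KRT18 and ITGAM), and their whole list summed to 307 to 326 FPKM with JIB-04 and 318 to 339 FPKM with vehicle. Of these, KRT8 averaged 71.5 ± 3.76 FPKM with JIB-04 and 23.2 ± 1.52 FPKM with vehicle and ITGAM 2.39 ± 0.763 FPKM with JIB-04 and 0.295 ± 0.111 FPKM with vehicle, while KRT18 averaged 243 ± 6.66 FPKM with JIB-04 and 302 ± 8.95 FPKM with vehicle. The defining genes EPCAM, CDH1, PTPRC, CD3E, CDH5 and ALB averaged between 0 and 0.230 FPKM in either group, and the endothelial marker PECAM1, with overlapping groups, averaged 1.29 ± 0.416 FPKM with JIB-04 and 0.568 ± 0.196 FPKM with vehicle. Of 10 neuronal markers 8 were tested, and the sums of the list were 489 to 530 FPKM with JIB-04 and 500.2 to 538 FPKM with vehicle. By the same test 4 rose and 3 fell, against 34.2% and 38.0% of all genes. Behind the similar sums, 3 rose at least 2-fold (SNAP25, MAP2 and SYT1) and 1 fell at least 2-fold (GAP43), against 13.1% and 11.8% of all genes. MAP2 averaged 2.87 ± 0.539 FPKM with JIB-04 and 0.535 ± 0.181 FPKM with vehicle. MAP2 and ITGAM reached a mean of 1 FPKM only through their JIB-04 values. What part these markers had in the kinesin values was not tested.

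Of the mitotic kinesins tested, 8 were lower with JIB-04 and 4 were higher, 2 of these by more than 2-fold, while the transport kinesins moved in both directions. The 17460 genes that averaged 1 FPKM or more across the 8 libraries were tested by limma on log2(FPKM + 0.5), and those with a p under 0.05 after Benjamini-Hochberg adjustment over all of them are called changed. Of the 33 kinesins that passed this filter, 12 rose, 14 fell and 7 did not pass the threshold. Over all genes tested, 34.2% rose and 38.0% fell, so the shares of kinesins called were close to the background in both directions. At least 2-fold changes were found in 3 kinesins that rose and 4 that fell, against 13.1% and 11.8% of all genes. The 4 JIB-04 libraries and the 4 vehicle libraries did not overlap for 26 of the 33 kinesins, against 67.3% of all genes. The median log2 fold change of the 33 kinesins was -0.15, and that of all genes tested was -0.07. Rescaling FPKM to TPM moved the log2 fold changes of single genes upward, by a median of 0.16 over all genes. Fold changes near 0 are to be read against that shift.

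**Figure D1:**
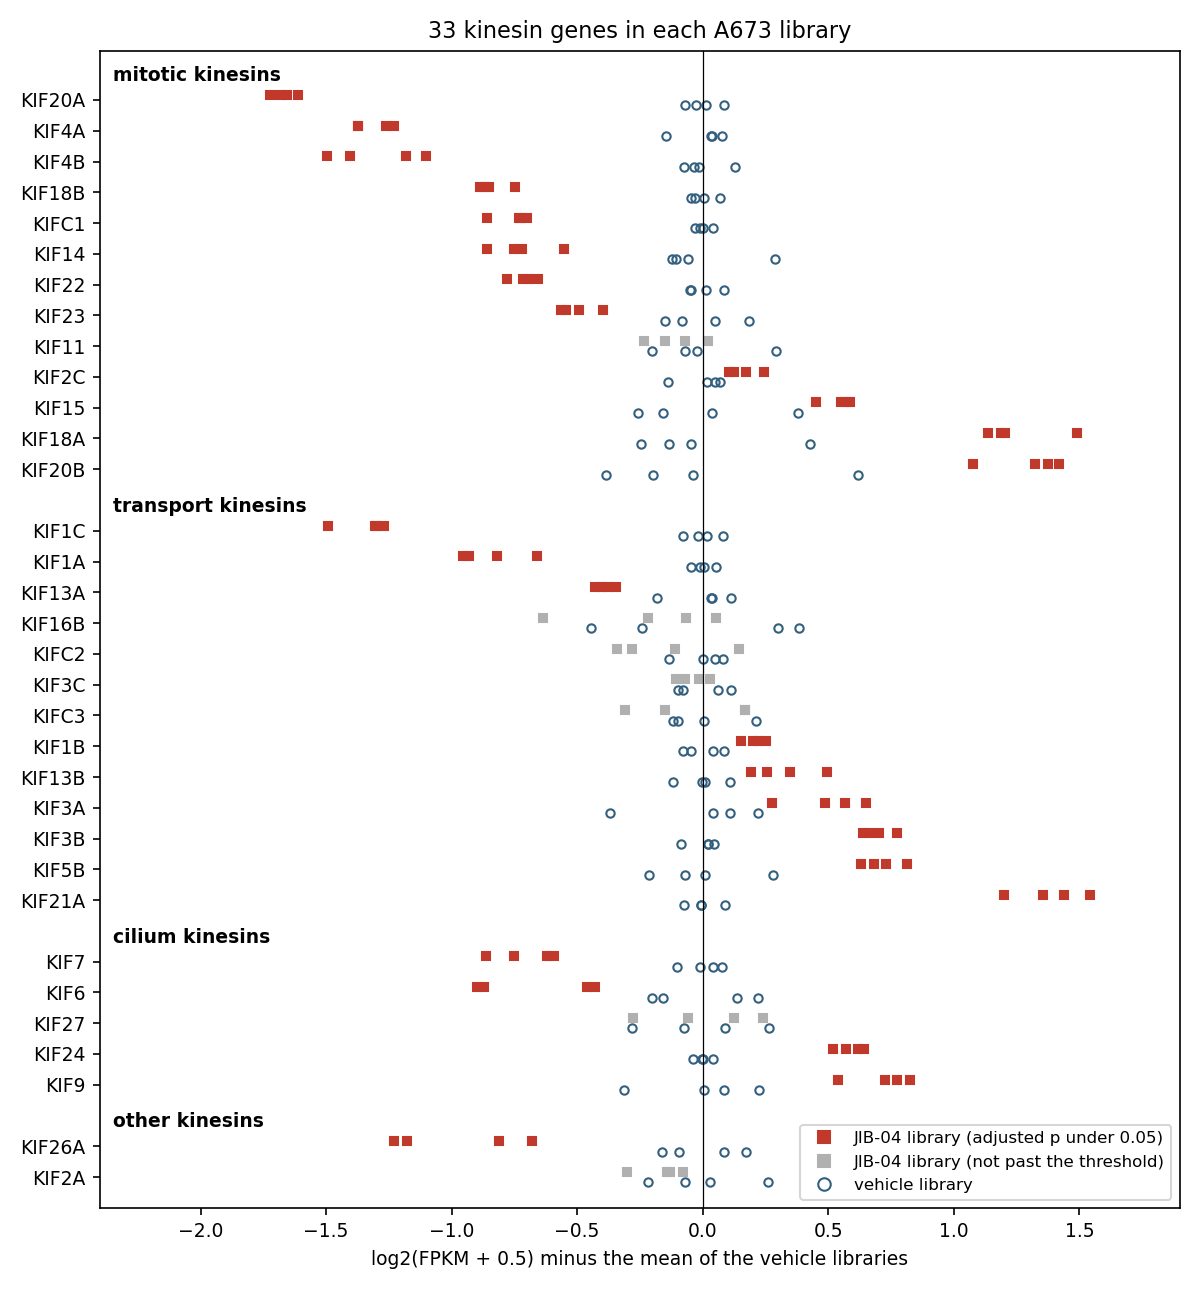
Each row is 1 of the 33 kinesins tested and the x axis gives log2(FPKM + 0.5) in each library minus the mean of the vehicle libraries. Filled squares are the 4 JIB-04 libraries, red where the limma adjusted p was under 0.05 and grey where it was not, and open circles are the 4 vehicle libraries. KIF20A and KIF1C stand farthest to the left among the mitotic and the transport kinesins, and KIF20B and KIF21A farthest to the right.

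Kinesin FPKM summed to 1273 to 1332 in the JIB-04 libraries and to 1583 to 1643 in the vehicle libraries. Mitotic members made up 566 to 598 FPKM with JIB-04 and 744 to 821 FPKM with vehicle, and transport members 594 to 674 FPKM with JIB-04 and 716 to 759 FPKM with vehicle. As a percent of the FPKM of all genes in a library, which was itself lower with JIB-04, mitotic members held 0.0463 to 0.0509% with JIB-04 and 0.0551 to 0.0610% with vehicle. Transport members held 0.0501 to 0.0551% with JIB-04 and 0.0526 to 0.0562% with vehicle, and on this scale their groups overlapped. The order of the motors by level also differed between the groups. With JIB-04 the highest kinesin was KIFC3, at 12.2% of all kinesin FPKM, followed by KIF1A at 11% and KIF5B at 9.49%. With vehicle it was KIF1A, at 16%, followed by KIF22 at 10.7% and KIFC3 at 10.1%. In the JIB-04 libraries the values of KIFC3 (159 ± 25.8 FPKM) and KIF1A (144 ± 13.7 FPKM) overlapped. KIF20A was the 11th kinesin by level with JIB-04 and the 4th with vehicle, whereas KIF18A was the 6th with JIB-04 and the 15th with vehicle.

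Of the 13 mitotic kinesins tested, 8 fell (38.0% of all genes tested did), 4 rose (34.2% of all genes) and 1 did not pass the threshold, with a median log2 fold change of -0.71 beside -0.07 for all genes tested. Taken library by library, relative to the vehicle means, the median of the 13 was -0.73 to -0.57 in the JIB-04 libraries and -0.13 to 0.08 in the vehicle libraries. In bulk RNA, fewer cells in the phase of the cycle that makes these transcripts and less RNA per such cell cannot be told apart. The remaining mitotic member, KIF2B, a kinesin-13 that depolymerises microtubules, was listed at 0 FPKM in all 8 libraries.

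Those that fell included KIF20A, KIF4A, KIF23 and KIF14, which work at the spindle midzone or in cytokinesis. KIF20B, another motor of cytokinesis, rose. KIF20A, a kinesin-6 that brings the chromosomal passenger complex to the midzone, lies at chr5:138178719-138187715 of GRCh38. It had 36.9, 35.9, 37.6 and 38.9 FPKM in the JIB-04 libraries, against 114, 127, 121 and 117 FPKM in the vehicle libraries. Its groups were far apart, and its level was 3.21 times higher with vehicle. The log2 fold change was -1.67 ± 0.05 (standard error, SE, with a limma adjusted p = 7.56e-09). Exons of BRD8 and CDC23 overlap those of KIF20A on the opposite strand, and whether the counting used the strand is not stated in the sources used here.

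KIF4A (chrX:70290090-70420832), the chromokinesin that sets the length of midzone microtubules, had 17.4, 16.1, 16.1 and 17.8 FPKM in the JIB-04 libraries, against 38.2, 43.4, 43.6 and 44.7 FPKM in the vehicle libraries. All JIB-04 values lay below all vehicle values, at a log2 fold change of -1.31 ± 0.07 (SE, limma adjusted p = 1.72e-07). KIF4B (chr5:155013755-155018132) is a close copy of KIF4A that has no introns. It had 4.44, 3.51, 3.27 and 4.18 FPKM in the JIB-04 libraries, against 11.1, 9.87, 10.0 and 9.57 FPKM in the vehicle libraries, also without overlap, and a log2 fold change of -1.30 ± 0.11 (SE, limma adjusted p = 3.74e-06). Because 14.1% of the stretches of 50 bases in KIF4A transcripts also occur in KIF4B transcripts, reads from the pair can be split between them, and the 2 values may not be independent. The share depends on the read length, for which the labels and the methods differ, and was 0.0238% for stretches of 151 bases, the length in the labels.

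Falls of a smaller size were found in 5 further mitotic motors, and in none of them did the groups overlap. Of all genes tested, 38.0% fell and 67.3% had groups that did not overlap. KIF18B, a kinesin-8 that trims astral microtubules, had 16.8, 18, 16.3 and 16.6 FPKM in the JIB-04 libraries, against 32.1, 30.8, 29.7 and 30.0 FPKM in the vehicle libraries, at a log2 fold change of -0.84 ± 0.06 (SE, limma adjusted p = 8.93e-07). KIFC1, the minus-end directed kinesin-14 that draws spindle poles together and clusters extra centrosomes, averaged 67.5 ± 3.27 FPKM with JIB-04 and 114 ± 2.40 FPKM with vehicle (SD, n = 4 each), with a log2 fold change of -0.75 (limma adjusted p = 5.22e-07). KIF22, the chromokinesin that pushes chromosome arms away from the poles, averaged 105 ± 3.79 FPKM with JIB-04 and 172 ± 7.68 FPKM with vehicle, with a log2 fold change of -0.71 (limma adjusted p = 7.55e-07). KIF14, which works with citron kinase in cytokinesis, averaged 9.63 ± 0.903 FPKM with JIB-04 and 16.3 ± 2.38 FPKM with vehicle, with a log2 fold change of -0.72 (limma adjusted p = 0.000238). KIF23, the motor of the centralspindlin complex, had 68.6, 64.1, 60.9 and 61.8 FPKM in the JIB-04 libraries, against 81.4, 85.4, 93.5 and 103 FPKM in the vehicle libraries. Its log2 fold change of -0.50 ± 0.08 (SE, limma adjusted p = 0.000261) was the smallest among the 8 that fell.

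The 4 mitotic kinesins that rose included close relatives of motors that fell. KIF18A (chr11:28020620-28108308), a kinesin-8 that damps the movements of chromosomes at the metaphase plate, had 75.5, 72.7, 93.4 and 76.4 FPKM in the JIB-04 libraries, against 29.9, 31.8, 27.6 and 44.3 FPKM in the vehicle libraries. The lowest JIB-04 library was well above the highest vehicle library, and the level was 2.38 times higher with JIB-04 (log2 fold change 1.26 ± 0.14 SE, limma adjusted p = 3.52e-05). Exons of METTL15 overlap those of KIF18A on the opposite strand. KIF20B (chr10:89701610-89774939), a kinesin-6 needed for the completion of cytokinesis, had 20.8, 17.4, 22.2 and 21.5 FPKM in the JIB-04 libraries, against 6.02, 7.77, 6.92 and 12.6 FPKM in the vehicle libraries. Vehicle replicate 4 was the highest vehicle library for this gene as for KIF18A, and the groups still did not overlap (log2 fold change 1.30 ± 0.20 SE, limma adjusted p = 0.000246).

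KIF15, which can take over from KIF11 in keeping spindle poles apart, had 13.4, 13.3, 12.2 and 13.1 FPKM in the JIB-04 libraries, against 7.26, 7.83, 9.02 and 11.6 FPKM in the vehicle libraries. The groups did not overlap, but vehicle replicate 4 came near the JIB-04 values (log2 fold change 0.54 ± 0.13 SE, limma adjusted p = 0.0045). KIF2C, the kinesin-13 that corrects faulty attachments of chromosomes to microtubules, had 110.1, 108, 114 and 119 FPKM in the JIB-04 libraries, against 91.7, 106, 104 and 102 FPKM in the vehicle libraries. This was the smallest change among the mitotic kinesins that passed, at a log2 fold change of 0.16 ± 0.06 (SE, limma adjusted p = 0.0268), about the size of the TPM shift. That shift is upward, and after rescaling to TPM the log2 fold change of KIF2C was 0.33 (limma adjusted p = 0.000732). On FPKM, KIF2C no longer passed without JIB-04 replicate 3 (limma adjusted p = 0.0534) or without JIB-04 replicate 4 (limma adjusted p = 0.0757).

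KIF11, the tetrameric motor that pushes the poles of the spindle apart, had 35.6, 33.6, 40.2 and 37.7 FPKM in the JIB-04 libraries, against 34.4, 37.7, 39 and 48.6 FPKM in the vehicle libraries. The groups overlapped, and the log2 fold change of -0.11 (95% interval -0.35 to 0.13, limma adjusted p = 0.375) did not pass the threshold. CENPE, the kinesin-7 that carries chromosomes to the metaphase plate, has a symbol outside the pattern and had 18.3, 18, 18.9 and 26.6 FPKM in the JIB-04 libraries, against 11.6, 11.1, 14.9 and 22.6 FPKM in the vehicle libraries, again with overlap (log2 fold change 0.47, 95% interval -0.03 to 0.97, limma adjusted p = 0.0828). Among the vehicle libraries, replicate 4 was the highest for 7 of the 13 mitotic kinesins tested and replicate 1 the lowest for 8 of them. Without vehicle replicate 4 the number of mitotic kinesins that rose and fell stayed at 4 and 8, and the median log2 fold change was -0.63.

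**Figure D2:**
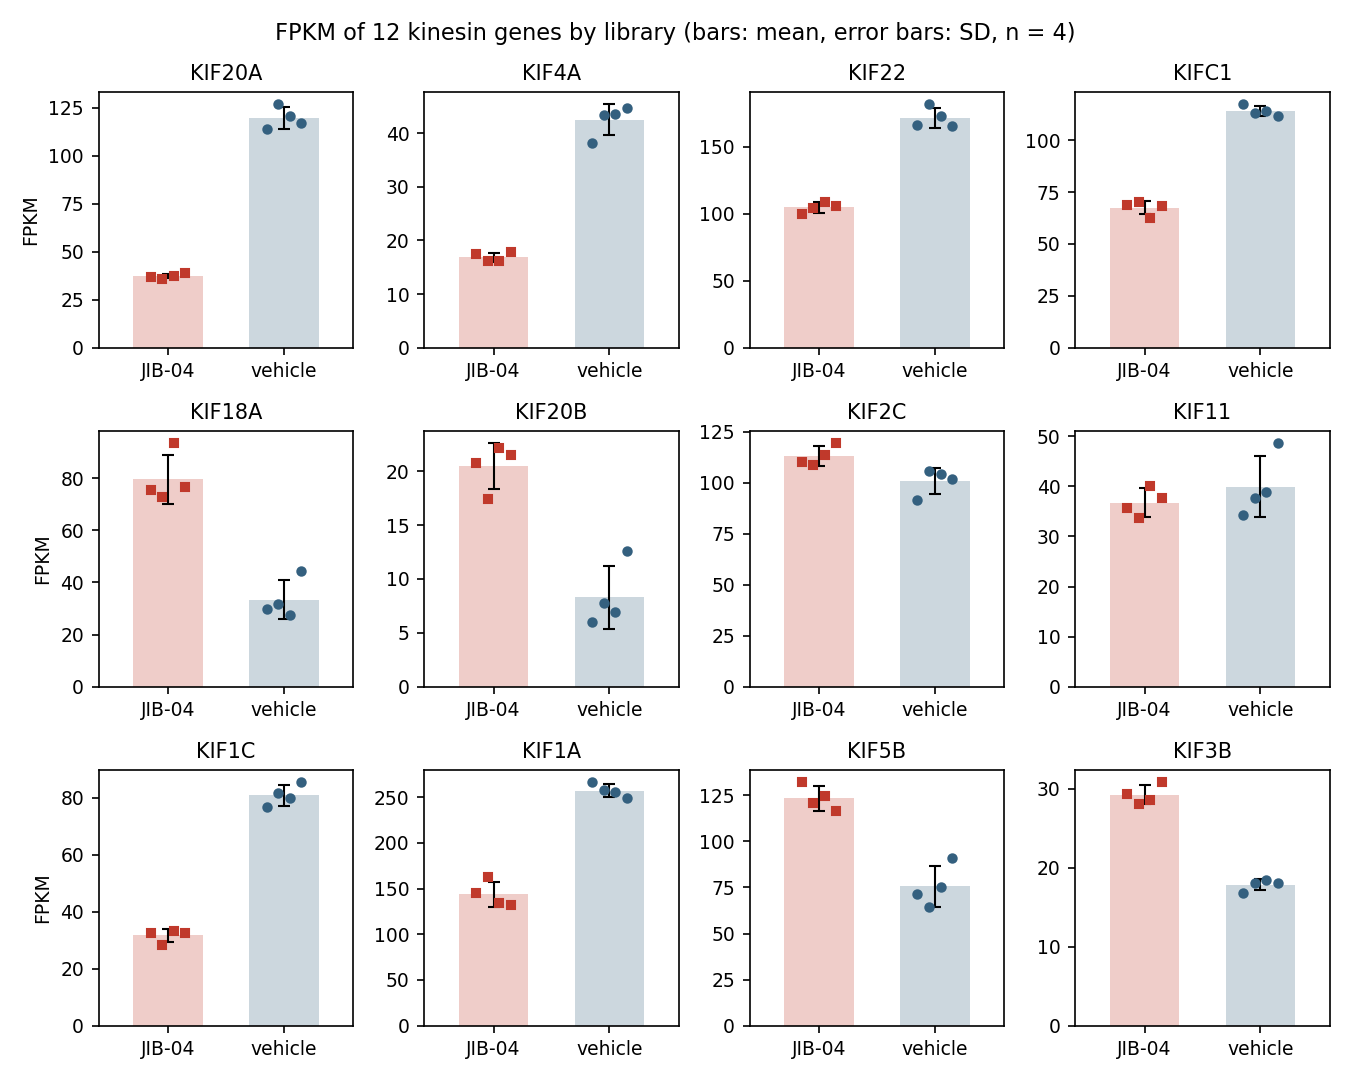
FPKM of 12 kinesin genes, JIB-04 on the left of each panel and vehicle on the right. Points are the 4 libraries of a group, bars are their means and error bars are SD (n = 4). The JIB-04 values of KIF20A (35.9 to 38.9 FPKM) lie far below its vehicle values (114 to 127 FPKM), those of KIF18A lie above, and those of KIF11 overlap.

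The promoters of the family were read from RefSeq sequence on GRCh38.p14, from 250 bases before to 50 bases after each start, and 34 of the 42 kinesins had an entry. Many genes of late cell cycle carry a CCAAT box and a cell cycle homology region (CHR) near their start, and both were searched on both strands, the first as CCAAT and the second as TTTGAA. Neither motif holds the letters of the other. A CHR was found in 10 of 14 mitotic and 1 of 12 transport kinesins, against 15.4% of 27305 promoters of the same length. A CCAAT box was found in 11 of 14 mitotic and 3 of 12 transport kinesins, against 35.7% of all promoters. Both stood together in 9 of 14 mitotic and 1 of 12 transport kinesins, against 6.08% of all promoters. The E2F-type motif GCGGGAA was in 0 of 14 mitotic and 2 of 12 transport kinesins (6.56% of all promoters), and the repeat GGAAGGAA, a form of the sequence that EWS/FLI1 is known to bind, was in 0 of 34 kinesins (3.58% of all promoters).

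Within the mitotic group a CHR was in 6 of the 8 that fell and in 3 of the 4 that rose, and a CCAAT box in 8 of the 8 that fell and in 2 of the 4 that rose. A match is a description of letters and not of a bound factor. The 7 stretches that follow lie within the 140 bases before the RefSeq start, outside annotated exons, and are written 5′ to 3′ on the strand of the gene with CCAAT boxes (or their complement ATTGG) and CHR letters (or their complement TTCAAA) in capitals. KIF14 and KIF22 are shown for the mitotic motors that fell, KIF11 for the mitotic motor that did not pass, and KIF20B and KIF2C for those that rose. KIF5B, which rose, is the transport kinesin with both motifs, and KIF1C, which fell, has neither.
KIF14, chr1:200620752-200620891, minus strand: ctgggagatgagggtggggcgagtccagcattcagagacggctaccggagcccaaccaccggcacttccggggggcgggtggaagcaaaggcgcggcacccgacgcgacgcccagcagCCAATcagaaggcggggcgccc
KIF22, chr16:29790611-29790718, plus strand: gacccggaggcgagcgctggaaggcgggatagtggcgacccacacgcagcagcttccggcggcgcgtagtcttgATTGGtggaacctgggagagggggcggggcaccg
KIF11, chr10:92592990-92593129, plus strand: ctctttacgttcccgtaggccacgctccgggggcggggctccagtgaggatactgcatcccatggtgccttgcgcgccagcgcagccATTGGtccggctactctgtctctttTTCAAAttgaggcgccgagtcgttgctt
KIF20B, chr10:89701450-89701589, plus strand: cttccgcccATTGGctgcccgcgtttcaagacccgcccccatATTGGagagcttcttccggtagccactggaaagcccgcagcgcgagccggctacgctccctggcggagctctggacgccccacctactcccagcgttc
KIF2C, chr1:44739697-44739817, plus strand: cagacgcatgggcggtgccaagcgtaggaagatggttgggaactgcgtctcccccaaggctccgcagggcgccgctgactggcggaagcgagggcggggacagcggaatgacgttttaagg
KIF5B, chr10:32056432-32056565, minus strand: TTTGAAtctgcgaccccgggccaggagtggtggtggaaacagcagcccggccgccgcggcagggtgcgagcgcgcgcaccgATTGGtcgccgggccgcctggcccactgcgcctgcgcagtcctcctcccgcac
KIF1C, chr17:4997810-4997947, plus strand: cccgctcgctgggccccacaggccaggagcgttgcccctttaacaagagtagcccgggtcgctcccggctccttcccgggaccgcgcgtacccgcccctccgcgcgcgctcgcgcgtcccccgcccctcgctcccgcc
KIF14 and KIF22 each show a CCAAT box in these stretches, and KIF20B, which moved the other way, shows 2. The CHR letters of KIF14 and KIF20B lie after the start, at positions 2 and at 25 and 31, counted from 1 at the first transcribed base. KIF11 carries a CCAAT box that begins 53 bases and a CHR that begins 28 bases before the start, while KIF2C has no letters of either motif in the whole window.

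Ratios of 2 genes within a library do not depend on how libraries are scaled, and 12 pairs of related motors or of a motor and its partner had been set, with the opposite movement of KIF2C and KIF20A already known. Both genes passed the filter in 10 pairs. The ratio differed between the groups in 9 of these, each with an exact two-sided permutation p of 0.0286, the smallest that 4 against 4 libraries can give, and 0.0317 after adjustment over the 10 pairs. In 2 pairs the ratio was higher with JIB-04 and in 7 it was lower. For KIF20A/KIF20B, KIF18A/KIF18B, KIF1C/KIF1B and KIF13A/KIF13B the 2 genes moved in opposite directions, each without overlap. Such ratios had to separate, so the p of these pairs adds nothing to the results of the single genes. The pairs were set with earlier results of these data known, and the count of 9 is a description. The differences are of log2 ratios after 0.5 FPKM was added to each gene, which leaves a small dependence on scale. A ratio does not remove the trend of fold changes on GC content described below. The GC content was 37% for KIF18A and 58.4% for KIF18B, and 48.4% for KIF20A and 34.2% for KIF20B.

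The 2 kinesin-6 motors KIF20A and KIF20B showed the largest difference among the 10. Their FPKM ratio was 1.77, 2.06, 1.69 and 1.80 in the JIB-04 libraries, against 18.9, 16.3, 17.5 and 9.34 in the vehicle libraries. The JIB-04 ratios lay between 1.69 and 2.06 and no vehicle ratio was below 9.34. The log2 ratio differed by -2.97 (standard error 0.23, 95% interval -3.52 to -2.41). For the 2 kinesin-8 motors the KIF18A/KIF18B ratio was 4.50, 4.03, 5.72 and 4.61 in the JIB-04 libraries, against 0.931, 1.03, 0.930 and 1.48 in the vehicle libraries. KIF18A was the higher of the pair in each JIB-04 library, whereas KIF18B was the higher in 2 of the 4 vehicle libraries (log2 difference 2.09 ± 0.19 SE).

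KIF11 to KIF15, the 2 motors that keep spindle poles apart, averaged a ratio of 2.84 ± 0.336 with JIB-04 and 4.52 ± 0.308 with vehicle (SD, n = 4 each, log2 difference -0.65 ± 0.09 SE). The 2 kinesin-13 depolymerases KIF2C and KIF2A had a ratio of 3.10 ± 0.129 with JIB-04 and 2.48 ± 0.281 with vehicle (log2 difference 0.32 ± 0.09 SE). KIF23 and RACGAP1, which together form centralspindlin, had a ratio of 0.324 ± 0.0241 with JIB-04 and 0.466 ± 0.0471 with vehicle (log2 difference -0.52 ± 0.09 SE). RACGAP1 itself averaged 197 ± 6.38 FPKM with JIB-04 and 195 ± 11.7 FPKM with vehicle, with overlapping groups (limma adjusted p = 0.777). KIF4A and PRC1, the microtubule bundler that anchors it at the midzone, had a ratio of 0.0544 ± 0.00327 with JIB-04 and 0.0742 ± 0.00424 with vehicle (log2 difference -0.42 ± 0.06 SE), and PRC1 alone also fell, by 0.89 on the log2 scale.

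**Figure D3:**
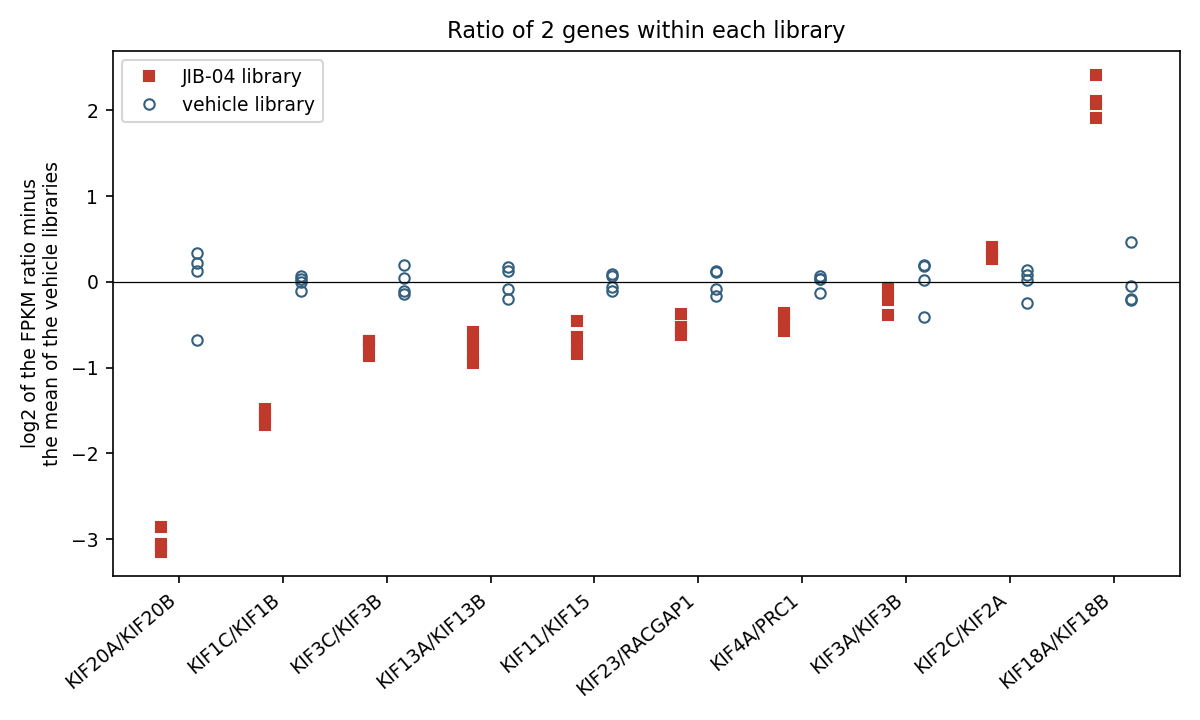
The y axis gives the log2 ratio of the FPKM of 2 genes in each library minus the mean of the vehicle libraries, for the 10 pairs tested. Squares are the 4 JIB-04 libraries and circles the 4 vehicle libraries of each pair. The groups overlap for KIF3A/KIF3B, and KIF20A/KIF20B and KIF18A/KIF18B stand apart most in the 2 directions.

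Of the 13 transport kinesins tested, 6 rose (34.2% of all genes did), 3 fell (38.0% of all genes) and 4 did not pass the threshold, with a median log2 fold change of -0.03 beside -0.71 for the mitotic and -0.07 for all genes tested. The median of the 13 was -0.07 to 0.17 in single JIB-04 libraries, against -0.01 to 0.04 in single vehicle libraries. The libraries of the groups did not overlap for 9 of the 13 and for 12 of the 13 mitotic members, against 67.3% of all genes, so that the transport share was close to the background. These are descriptions of the 2 lists, whose members are not replicates, and no test was made of one list against the other.

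The kinesin-3 motors, which carry vesicles, divided between the directions. KIF1C (chr17:4997948-5028401), a carrier of vesicles and of integrins, had 32.6, 28.5, 33.3 and 32.4 FPKM in the JIB-04 libraries, against 76.7, 81.9, 79.9 and 85.6 FPKM in the vehicle libraries. The level was 2.56 times higher with vehicle, with no overlap (log2 fold change -1.34 ± 0.06 SE, limma adjusted p = 9.3e-08). KIF1A, the motor of synaptic vesicle precursors in neurons, was the most abundant kinesin with vehicle and had 145, 162, 135 and 132 FPKM in the JIB-04 libraries, against 266, 258, 255 and 249 FPKM in the vehicle libraries (log2 fold change -0.84 ± 0.06 SE, limma adjusted p = 2.32e-06). KIF1B, which has isoforms for mitochondria and for vesicles, had 43.2, 41.3, 42.6 and 44.2 FPKM in the JIB-04 libraries, against 35, 35.8, 39.3 and 38.2 FPKM in the vehicle libraries, a small rise without overlap (log2 fold change 0.21 ± 0.05 SE, limma adjusted p = 0.00639). The KIF1C/KIF1B ratio was 0.754, 0.689, 0.782 and 0.734 in the JIB-04 libraries, against 2.19, 2.29, 2.03 and 2.24 in the vehicle libraries, so that KIF1C was the lower of the 2 in every JIB-04 library and the higher in every vehicle library (log2 difference -1.55 ± 0.05 SE).

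A like split was found between KIF13A, which draws tubules out of recycling endosomes, and its relative KIF13B. KIF13A had 5.85, 5.95, 6.09 and 5.71 FPKM in the JIB-04 libraries, against 6.88, 8.56, 8.09 and 8.07 FPKM in the vehicle libraries, and fell (log2 fold change -0.39 ± 0.08 SE, limma adjusted p = 0.00237). KIF13B had 5.27, 6.30, 5.01 and 5.63 FPKM in the JIB-04 libraries, against 4.35, 4.31, 3.95 and 4.70 FPKM in the vehicle libraries, and rose (log2 fold change 0.32 ± 0.10 SE, limma adjusted p = 0.0145). Neither gene overlapped between the groups, and their ratio averaged 1.07 ± 0.118 with JIB-04 and 1.83 ± 0.221 with vehicle (log2 difference -0.71 ± 0.11 SE). KIF16B, which moves early endosomes, averaged 2.94 ± 0.666 FPKM with JIB-04 and 3.55 ± 1.11 FPKM with vehicle with wide spread and overlapping groups (log2 fold change -0.22, 95% interval -0.72 to 0.29, limma adjusted p = 0.405).

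The conventional kinesin KIF5B and the kinesin-2 subunits KIF3A and KIF3B rose together. KIF5B (chr10:32009010-32056431), the ubiquitous heavy chain of conventional kinesin, had 132, 121, 125 and 116 FPKM in the JIB-04 libraries, against 71.4, 64.5, 75.4 and 91.1 FPKM in the vehicle libraries (log2 fold change 0.71 ± 0.10 SE, limma adjusted p = 0.000115). The groups were clearly apart even against vehicle replicate 4, the highest vehicle library. KIF3A, the common subunit of heterodimeric kinesin-2, had 17.3, 18.3, 14.9 and 19.5 FPKM in the JIB-04 libraries, against 13.2, 9.33, 14.3 and 12.6 FPKM in the vehicle libraries (log2 fold change 0.50 ± 0.13 SE, limma adjusted p = 0.00824). KIF3B, its usual partner, had 29.4, 28.1, 28.6 and 30.9 FPKM in the JIB-04 libraries, against 16.8, 18.1, 18.4 and 18.1 FPKM in the vehicle libraries (log2 fold change 0.69 ± 0.06 SE, limma adjusted p = 3.31e-06). Vehicle values of KIF3A were more scattered than those of KIF3B, and neither gene overlapped between groups.

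The KIF3A/KIF3B ratio was 0.590, 0.653, 0.521 and 0.631 in the JIB-04 libraries, against 0.786, 0.515, 0.776 and 0.695 in the vehicle libraries. These overlapped, and the log2 ratio differed by -0.20 with a 95% interval of -0.57 to 0.17 (exact permutation p = 0.286), the only pair of the 10 that did not differ at the threshold. KIF3C, the alternative partner of KIF3A, had 40.5, 36.9, 39.3 and 37.7 FPKM in the JIB-04 libraries, against 43, 41.5, 37.1 and 37.5 FPKM in the vehicle libraries, with overlap (log2 fold change -0.04, 95% interval -0.18 to 0.10, limma adjusted p = 0.584). KIF3C outnumbered KIF3B in all libraries, with a KIF3C/KIF3B ratio of 1.32 ± 0.0727 with JIB-04 and 2.23 ± 0.247 with vehicle (SD, n = 4 each, log2 difference -0.73 ± 0.09 SE).

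KIF21A (chr12:39293228-39443390), which restrains microtubule growth and moves along axons, had the largest rise in log2 terms among the 33 kinesins tested. It had 6.14, 6.89, 7.91 and 7.33 FPKM in the JIB-04 libraries, against 2.37, 2.24, 2.38 and 2.57 FPKM in the vehicle libraries, and its level was 2.96 times higher with JIB-04 (log2 fold change 1.38 ± 0.10 SE, limma adjusted p = 1.66e-06). The level stayed low beside those of KIF5B or KIF1A. The minus-end directed motors of the transport group did not pass. KIFC3, a kinesin-14 known from cell junctions, averaged 159 ± 25.8 FPKM with JIB-04 and 161 ± 17.5 FPKM with vehicle (log2 fold change -0.03, 95% interval -0.30 to 0.24, limma adjusted p = 0.83). KIFC2, a kinesin-14 expressed in neurons, had 27.2, 32.6, 24.1 and 23.1 FPKM in the JIB-04 libraries, against 30.5, 31.2, 26.8 and 29.5 FPKM in the vehicle libraries (log2 fold change -0.15, 95% interval -0.39 to 0.09, limma adjusted p = 0.237). The highest JIB-04 value of KIFC2 was in replicate 2, and without that library the gene passed as lower (limma adjusted p = 0.0253).

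Of the 5 cilium kinesins tested, 2 rose (34.2% of all genes did) and 2 fell (38.0% of all genes), close to the background in both directions. KIF9, a kinesin-9 of motile cilia, had 13.2, 14.2, 13.6 and 11.5 FPKM in the JIB-04 libraries, against 8.26, 9.15, 7.78 and 6.16 FPKM in the vehicle libraries, with no overlap (log2 fold change 0.72 ± 0.12 SE, limma adjusted p = 0.000488). KIF24, which holds back cilium growth at the mother centriole, averaged 15.8 ± 0.615 FPKM with JIB-04 and 10.4 ± 0.241 FPKM with vehicle (log2 fold change 0.59, limma adjusted p = 1.45e-05). KIF7, a regulator of Hedgehog signalling at the tip of the cilium, averaged 4.25 ± 0.406 FPKM with JIB-04 and 7.24 ± 0.413 FPKM with vehicle (log2 fold change -0.71, limma adjusted p = 8.78e-05). KIF6, the other kinesin-9, averaged 0.790 ± 0.225 FPKM with JIB-04 and 1.54 ± 0.297 FPKM with vehicle (log2 fold change -0.66, limma adjusted p = 0.00914). It passed the filter of 1 FPKM only through its vehicle values, so its call as lower is not independent of the filter. KIF27, a relative of KIF7, averaged 3.71 ± 0.644 FPKM with JIB-04 and 3.69 ± 0.672 FPKM with vehicle and did not pass (log2 fold change 0.01, 95% interval -0.35 to 0.36, limma adjusted p = 0.97), and 29.6% of its stretches of 50 bases and 4.33% of those of 151 bases also occur in other genes. Exons of genes on the opposite strand overlap those of KIF9 (KLHL18), KIF24 (UBAP1) and KIF7 (TICRR), as they do for KIF4A (PDZD11) and KIFC2 (FOXH1).

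Among the other kinesins, KIF26A, an atypical kinesin without motor activity, averaged 6.18 ± 1.26 FPKM with JIB-04 and 12.5 ± 1.41 FPKM with vehicle and fell (log2 fold change -0.98 ± 0.14 SE, limma adjusted p = 0.000181). KIF2A, a kinesin-13 that depolymerises microtubules at spindle poles and in neurons, had 37, 33, 37.2 and 38.6 FPKM in the JIB-04 libraries, against 35, 38.8, 41.7 and 48.9 FPKM in the vehicle libraries. The groups overlapped (log2 fold change -0.16, 95% interval -0.39 to 0.06, limma adjusted p = 0.168), and among the fits without 1 library the gene passed as lower only when vehicle replicate 1 was left out (limma adjusted p = 0.0447). Exons of IPO11 overlap those of KIF2A on the same strand.

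The 9 kinesins with a mean under 1 FPKM were KIF2B, KIF5A, KIF5C, KIF12, KIF17, KIF19, KIF21B, KIF25 and KIF26B. Several of these low values were nevertheless far enough apart not to overlap, as was so for 67.3% of all genes tested. The neuronal heavy chains of conventional kinesin differed in direction. KIF5A had 0.329, 0.319, 0.318 and 0.352 FPKM in the JIB-04 libraries, against 0.741, 0.868, 1.00 and 0.798 FPKM in the vehicle libraries, and KIF5C had 0.621, 0.449, 0.338 and 0.842 FPKM in the JIB-04 libraries, against 0.168, 0.151, 0.151 and 0.0659 FPKM in the vehicle libraries. KIF17, a homodimeric kinesin-2 of dendrites and cilia, averaged 0.802 ± 0.236 FPKM with JIB-04 and 0.195 ± 0.0884 FPKM with vehicle, and KIF21B, the neuronal relative of KIF21A, averaged 0.410 ± 0.0716 FPKM with JIB-04 and 0.748 ± 0.128 FPKM with vehicle. When no filter on level was applied, KIF5C, KIF17 and KIF25 passed as higher (limma adjusted p = 0.00466, 0.00152 and 0.023) and KIF5A and KIF21B as lower (limma adjusted p = 0.000366 and 0.0107). With the filter 34.2% of all genes rose and 38.0% fell, and the shares of all genes without it were not taken. KIF12, KIF19 and KIF26B had overlapping groups. An FPKM of exactly 0 in such a table may be a failed estimate, and fold changes at these levels are compressed by the added 0.5 FPKM.

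Transcripts of kinesins that rose were on the whole poorer in G and C than those that fell. The median GC content of the longest transcript was 44.6% for the 12 that rose and 51.7% for the 14 that fell. KIF20B and KIF18A, with GC contents of 34.2% and 37%, were the 2 lowest of the 33, and KIF26A, at 68.3%, was the highest. Across the 33 kinesins the log2 fold change and GC content had a Spearman rho of -0.42, with -0.57 in the 13 mitotic and -0.53 in the 13 transport members and -0.30 over the 17342 genes with a GC value. These correlations are across genes measured in the same 8 libraries, and genes are not independent replicates.

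The trend of each library on GC content was removed in a further fit, which was chosen after seeing the data. All 8 mitotic falls and all 4 mitotic rises still passed there, and the medians were -0.45 for the mitotic and 0.25 for the transport kinesins. The shares of all genes that rose and fell in this fit, and their median, were not taken. KIF20B and KIF18A kept log2 fold changes of 0.76 and 0.85, and KIF20A and KIF1C of -1.58 and -1.07. KIF7 and KIF3A no longer passed (limma adjusted p = 0.0743 and 0.436). KIF11 and KIF2A passed as lower at log2 fold changes of -0.45 and -0.35. KIFC2, KIF3C and KIFC3 changed sign and passed as higher, at 0.51, 0.25 and 0.51 (limma adjusted p = 0.000301, 0.0039 and 1.68e-05).

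**Figure D4:**
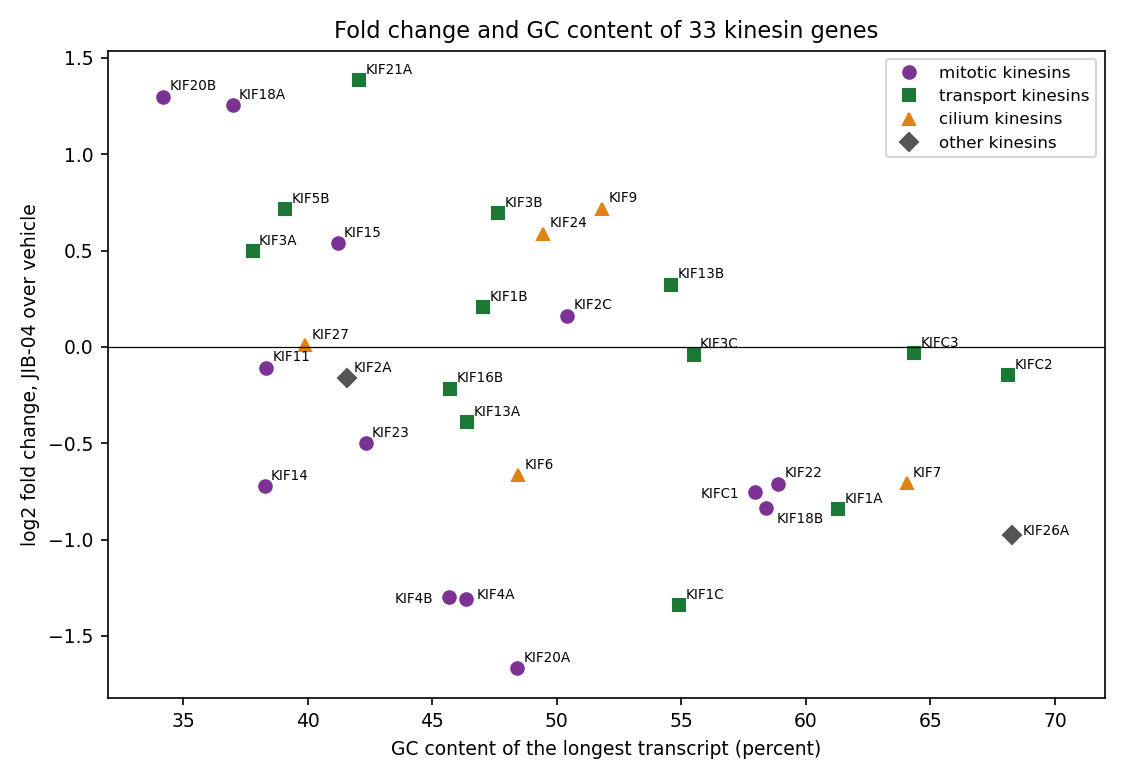
The x axis gives the GC content of the longest annotated transcript in percent and the y axis the log2 fold change of JIB-04 over vehicle for the 33 kinesins tested. Symbols mark the mitotic, transport, cilium and other groups. KIF20B and KIF18A lie at the upper left, KIF26A at the lower right, and KIF20A lies lowest at a GC content of 48.4%.

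Proteins that work with the motors were counted in 4 further lists, chosen for their function but with earlier results of these data known. Their counts are set beside the 34.2% of all genes tested that rose, the 38.0% that fell and the median of -0.07 over all genes. Of 20 spindle and midzone partners, CENPE among them, 14 fell, 1 rose and 5 did not pass, with a median log2 fold change of -0.49. More than the background share fell, but the authors had already named AURKA and AURKB as lower in these cells, so the count is a description and not independent support. The smallest adjusted p-values were those of BIRC5 and AURKB, subunits of the chromosomal passenger complex, and of TACC3, which stabilises spindle microtubules, and its kinase AURKA. BIRC5 averaged 79.3 ± 0.981 FPKM with JIB-04 and 184 ± 2.80 FPKM with vehicle (log2 fold change -1.21, limma adjusted p = 6.13e-09), and AURKB averaged 67 ± 4.03 FPKM with JIB-04 and 186 ± 13.4 FPKM with vehicle (log2 fold change -1.47, limma adjusted p = 6.51e-08). TACC3 averaged 70.6 ± 3.69 FPKM with JIB-04 and 199 ± 6.22 FPKM with vehicle (log2 fold change -1.49, limma adjusted p = 1.27e-08), and AURKA averaged 56.6 ± 1.69 FPKM with JIB-04 and 126 ± 6.05 FPKM with vehicle (log2 fold change -1.15, limma adjusted p = 4.95e-08). The member that rose, SPDL1, which recruits dynein to kinetochores, had overlapping groups (log2 fold change 0.29, limma adjusted p = 0.043), and the number of partners that rose was 0 to 3 when single libraries were left out.

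Of 21 tested kinesin light chains and cargo adaptors, 9 rose, 5 fell and 7 did not pass, against 34.2% and 38.0% of all genes, with a median log2 fold change of 0.14. SPAG9, the JIP4 adaptor of conventional kinesin and dynein, averaged 369 ± 22.1 FPKM with JIB-04 and 86.6 ± 5.78 FPKM with vehicle (log2 fold change 2.08, limma adjusted p = 7.48e-09). HAP1, a huntingtin-associated adaptor, averaged 22.9 ± 1.5 FPKM with JIB-04 and 6.06 ± 0.339 FPKM with vehicle (log2 fold change 1.83, limma adjusted p = 3.93e-08). KIFAP3, the non-motor subunit that completes the KIF3A and KIF3B motor, averaged 26.2 ± 1.29 FPKM with JIB-04 and 13 ± 0.954 FPKM with vehicle (log2 fold change 0.99, limma adjusted p = 1.38e-06), so that all 3 parts of heterotrimeric kinesin-2 rose, although KIF3A did not pass once the GC trend was removed.

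Dynein and dynactin, which move cargo the opposite way along microtubules, had 10 genes that rose, 11 that fell and 3 that did not pass of 24 tested, with a median of -0.12. Both shares were not far above those of all genes, 34.2% and 38.0%. NDEL1 and NDE1, related regulators of dynein, moved apart, at log2 fold changes of 1.06 and -1.50 (limma adjusted p = 5.85e-08 and 1.08e-07). The light chain DYNLL1 and the dynactin filament subunit ACTR1A fell, at -0.66 and -0.91 (limma adjusted p = 1.28e-07 and 1.46e-07). Of 20 genes of intraflagellar transport, the cargo system that kinesin-2 drives in cilia, 5 rose, 10 fell and 5 did not pass, against 34.2% and 38.0% of all genes, with a median of -0.24. The 6 listed genes of the complex for return transport moved in both directions. WDR35, TTC21B, WDR19 and IFT122 rose, at log2 fold changes of 1.64, 0.85, 1.17 and 0.63 (limma adjusted p = 5.58e-08, 8.45e-06, 1.87e-05 and 0.000107), whereas IFT43 and IFT140 fell, at -0.83 and -0.67 (limma adjusted p = 1.29e-05 and 2.24e-05). Of the other genes of this list, IFT20 rose, at 1.19, and IFT22 fell, at -0.62 (limma adjusted p = 1.15e-07 and 2.83e-06). The balance of these 2 lists depended on the scaling. After rescaling to TPM, 12 dynein and dynactin genes rose and 7 fell, and 8 intraflagellar transport genes rose and 8 fell.

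**Figure D5:**
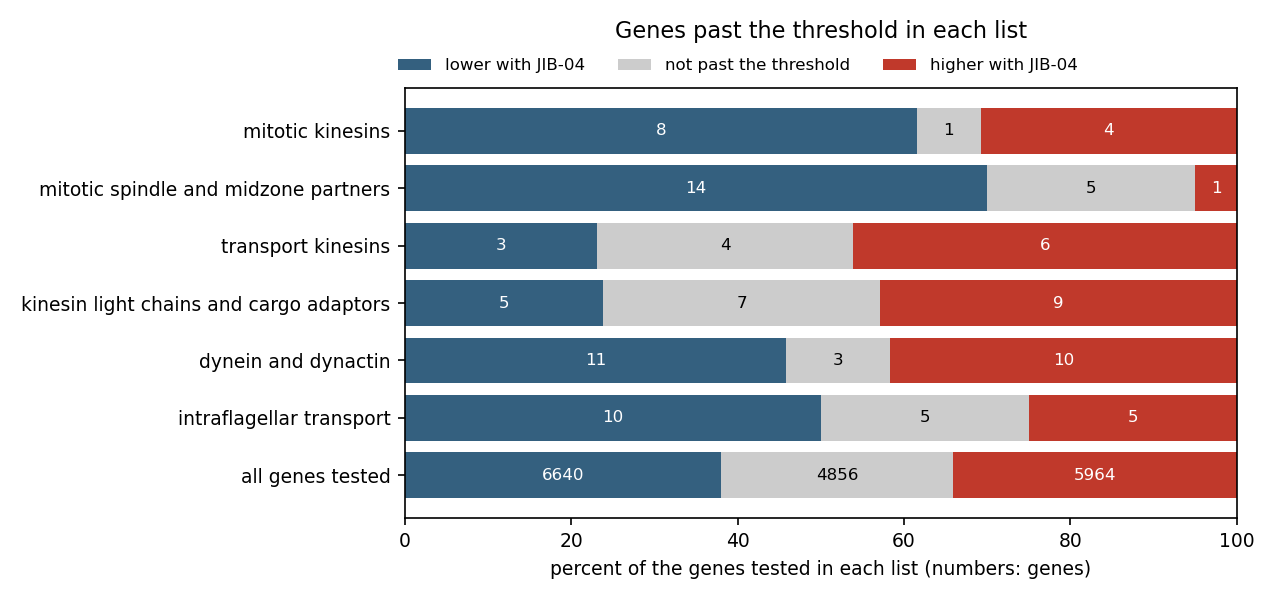
Bars give the percent of the genes tested in each list that were lower with JIB-04, did not pass the limma threshold or were higher with JIB-04, and the numbers are genes. The mitotic kinesins (8 lower, 4 higher) and their partners (14 lower, 1 higher) hold more genes that fell than rose, and the transport kinesins (3 lower, 6 higher) fewer.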

How the data were processed

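RNA-seq was made from 4 JIB-04 and 4 vehicle samples of A-673 cells. The deposited values are FPKM per gene, which the authors calculated with Cufflinks from reads aligned to GRCh38 with GSNAP and handled with SAMtools, per the submitters' processing notes. The labels give reads of another length than the methods, and read counts per library are not given in the sources used here, so the spread between libraries gives the precision. The table holds 66095 entries for 65975 Gene ids. Entries of the 117 ids listed more than once were summed, and 13 ids with a placeholder value, none of them a kinesin, were left out.

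Genes averaging 1 FPKM or more were tested on log2(FPKM + 0.5) by lmFit and eBayes (trend on level) of limma 3.58.1 under R 4.3.3, after the script had been tested on simulated data. The methods give an analysis of variance, which was kept as an alternative. The 0.5 FPKM added before taking logs understates the fold change of low genes. Ratios of gene pairs were compared by an exact two-sided permutation test. Coordinates, GC content, exon overlap and shared stretches came from GENCODE release 29 (GRCh38), and promoters from RefSeq (GRCh38.p14). Scripts used Python 3.11.15, pandas 2.3.3, scipy 1.17.1 and matplotlib 3.10.9.

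The members, the gene lists and the pairs were chosen with earlier results of these data known. Each kinesin was named. Values of every library were given for both kinesins of a tested pair, for the 4 largest rises and the 4 largest falls among members that passed and averaged 5 FPKM or more in the higher group, and for members that leaving out 1 library moved across the threshold, and from each partner list up to 4 genes with the smallest adjusted p were named. The result of 1 gene that this rule names is not reported here. Values by library of KIF1A, KIF5A, KIF5B and KIF5C, and the mention of SPDL1, PRC1, RACGAP1, WDR19, IFT122, IFT43 and IFT140, lie outside this rule and were chosen after their values were seen. The alternatives were pseudocounts of 0.1 and 1, no filter, a filter of 5 FPKM, TPM, median-ratio scaling, analysis of variance, a replicate block, leaving out each library and summing the Gene ids of a symbol. Removal of the GC trend, leaving out KIF4B and adding CENPE were chosen after seeing the data.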

Additional observations from a re-analysis of the deposited data

Results flagged for a closer look

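KIF14, the cytokinesis motor that fell with JIB-04, had a vehicle library that stood apart from the other 3. Vehicle replicate 4 had 19.8 FPKM and the others 14.8 to 15.5 FPKM, against 8.68 to 10.8 FPKM in the JIB-04 libraries, so its gap to the nearest was 0.864 of the range of the group. It was the only one of 66 groups of 4 values (33 kinesins in 2 groups) to pass Dixon's 95% limit, and chance alone would give about 3.3, or 1 in 20.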

How the results depend on the processing

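Of 558 fold changes of single kinesins recomputed under an alternative, 547 kept their side of the threshold and 535 also their direction, among them 521 and 510 of the 525 from alternatives that were not chosen after seeing the data. The changes of sign were in 5 kinesins that had not passed. Over all settings 10 to 15 kinesins rose and 13 to 16 fell. Leaving out single libraries gave 11 to 12 and 14 to 15, with mitotic medians of -0.73 to -0.63 and transport medians of -0.067 to 0.062, 0 to 3 spindle partners that rose, and log2 fold changes of -0.086 to 0.10 for KIF27 and -0.098 to 0.062 for KIFC3. With no filter 5 transport kinesins fell and 0 spindle partners rose. TPM moved the mitotic median to -0.54 and the transport median to 0.13, with 3 spindle partners that rose, 8 intraflagellar genes that rose and 8 that fell, and 12 dynein and dynactin genes that rose and 7 that fell, at an upward shift of 0.16 for all genes, and KIF11, KIFC2, KIF3C and KIFC3 turned to 0.054, 0.013, 0.12 and 0.13. Under analysis of variance 0 spindle partners rose. With the GC trend removed the mitotic median was -0.45 and the transport median 0.25, KIFC2, KIF3C and KIFC3 turned to 0.51, 0.25 and 0.51, and KIF27 to -0.26. Without KIF4B, or with CENPE added, the mitotic median was -0.61. Except where shown by the construction of the alternative, the cause was not tested.

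Same-numbered JIB-04 and vehicle libraries deviated from their group means with correlations of -0.06 to 0.08, and differently numbered ones with -0.14 to 0.10, so no shared deviation by number was seen. Whether same-numbered samples were handled together is not stated in the sources used here. With a replicate block 12 kinesins rose and 14 fell, as without it, and 2 spindle partners rose in place of 1. The unknown absolute depth limits what can be said of the 9 kinesins with a mean under 1 FPKM.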

Other observations

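Other genes with a kinesin name lie outside the pattern because they encode no motor protein or carry a suffix. KIF25-AS1, an RNA transcribed antisense to KIF25, had 0.548, 0.695, 0.686 and 0.458 FPKM in the JIB-04 libraries, against 3.16, 3.38, 3.28 and 3.31 FPKM in the vehicle libraries, without overlap (log2 fold change -1.79 ± 0.13 SE, limma adjusted p = 1.48e-06). KIF25 itself lay under the filter at 0.541 ± 0.270 FPKM with JIB-04 and 0.157 ± 0.0998 FPKM with vehicle (SD, n = 4 each), the opposite direction. Exons of the 2 genes overlap, and whether reads were assigned by strand is not stated in the sources used here. KIF9-AS1, antisense to KIF9, averaged 0.0740 FPKM with JIB-04 and 0.153 FPKM with vehicle, and the pseudogenes KIF28P and KIF4CP averaged 0.0399 and 0.0431 FPKM with JIB-04 and were at or below 0.0399 FPKM with vehicle.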
